A study of Canis lupus familiaris with 6 samples.

Results

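The genes described here encode proteins that set up apical-basal polarity in epithelial cells and the cytoplasmic scaffolds of the tight junction. They are CRB3, PATJ, PARD3, PARD6B, PARD6G, LLGL2, CGN, TJP3 and F11R. A member was included when its platform annotation gave that symbol alone, and where a gene had more than 1 probe set the one with the highest mean signal was used. All 9 members were found among the 15947 genes with a probe set of their own, and none was lost to a filter. PATJ had 2 such probe sets and each of the others 1.

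The study profiled the dog kidney epithelial cell line MDCK on 6 single-colour Affymetrix arrays of total RNA. The groups were untreated cells (2 arrays), cells kept in TGFb at 5 ng/ml for 30 days (2 arrays), cells given 5-AZA for 72 hours following TGFb (1 array) and cells 30 days after TGFb was withdrawn (1 array). All cells were grown in DMEM with serum, and the treated ones were subcultured every few days. The labels leave unstated whether same-group arrays are from separate cultures, whether TGFb stayed on during 5-AZA, and which compound 5-AZA is (the name is used for azanucleosides that inhibit DNA methylation). The spread behind every p-value is thus only that between these arrays, and it may be technical.

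Polarity in epithelial cells rests on 3 groups of proteins. In the Crumbs complex, the membrane protein CRB3 marks the apical side and binds PALS1, which in turn holds PATJ, a scaffold with many PDZ domains that also contacts tight junction proteins. In the PAR complex, PARD6 proteins couple CDC42 to atypical protein kinase C, and PARD3 is the scaffold that places the complex at the junction. In the Scribble group, LLGL2 acts on the basolateral side and is kept off the apical membrane by that kinase. Cingulin (CGN) and ZO-3 (TJP3) are cytoplasmic plaque proteins of the tight junction, and JAM-A (F11R) is a junctional immunoglobulin-like receptor that can recruit PARD3. MDCK cells are a standard model for all of these, and TGFb is known to dismantle epithelial junctions in many lines.

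All values are on the log scale of the deposited table, read as log2, and without a stated background level no detection limit can be set. The medians of the 6 arrays lay between 4.97 and 5.01. Arrays of the same group correlated at 0.984 (untreated) and 0.987 (TGFb) over all probe sets, and the 5-AZA array was the least like the untreated arrays (0.950 and 0.952). Of 9 epithelial and kidney tubule markers 8 were measured. Their summed level was 64.4 and 65.1 on the untreated arrays, 48.8 and 52.4 under TGFb, 51.4 on the 5-AZA array and 64.6 after withdrawal. Under TGFb CDH1 (log2 difference −4.79), EPCAM (−3.32) and KRT19 (−5.46) fell. KRT8, KRT18, CDH16, PAX2 and PAX8 did not pass, and the PAX8 difference was positive (0.59). The kidney marker CDH16 read between 4.58 and 5.05 on all 6 arrays, where presence cannot be decided without a detection limit. The 6 fibroblast and mesenchymal markers summed to 42.0 and 43.6 untreated, 47.9 and 48.6 under TGFb, 49.6 with 5-AZA and 44.2 after withdrawal. Under TGFb COL1A1, COL1A2 and CDH2 of these rose, PDGFRA fell (log2 difference −2.58 ± 0.31, adjusted p = 0.0352), and VIM and PDGFRB did not pass. Leukocyte markers (4 of 5 measured) summed to between 13.5 and 14.9 on the 6 arrays. Endothelial markers (5 of 5) summed to between 18.4 and 20.0 on all arrays but the 5-AZA one, where the sum was 22.8 and PECAM1 alone read 6.57. Neuronal markers (3 of 4) summed to between 13.1 and 14.1 on the untreated and TGFb arrays, 15.4 with 5-AZA and 15.8 after withdrawal. On a log scale no marker had a value of 0. The epithelial sum was low on the TGFb and 5-AZA arrays, as several members were, and the mesenchymal sum was high there. Neither sum moved through all of its genes. The part of either in the results below was not tested. In such bulk RNA, fewer cells of a type and less RNA per cell cannot be told apart.

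TGFb was first set against no treatment. With TGFb 3 of the 9 members fell and none rose: PATJ, PARD6B and CGN. Their signals were 10.0-fold, 5.2-fold and 3.37-fold lower than in untreated cells. A call here is a Benjamini-Hochberg adjusted p under 0.05 from limma, adjusted over all 32293 probe sets. Of all probe sets 1.64% were called, 0.954% lower and 0.691% higher.

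PATJ, the Crumbs complex scaffold, read 10.25 and 9.94 on the untreated arrays, 6.58 and 6.95 under TGFb, 6.10 with 5-AZA and 10.13 after withdrawal. The untreated and withdrawal arrays were high, the TGFb and 5-AZA arrays low, and the 2 sets did not overlap. TGFb lowered it by 3.33 ± 0.21 (standard error of the fit, as for all log2 differences; 95% interval −3.86 to −2.80; adjusted p = 0.00741). The means were 10.09 ± 0.22 and 6.76 ± 0.26 (SD, n = 2 each). The second PATJ probe set read 9.33 and 9.15 untreated, 6.11 and 6.63 under TGFb, 5.86 with 5-AZA and 9.19 after withdrawal. It gave −2.87 ± 0.22 for TGFb against untreated (adjusted p = 0.0133), so both probe sets fell. With 1 array left out, 1 residual degree of freedom remained. The call on the brighter probe set then ended without untreated replicate 1 (−3.17, adjusted p = 0.0657) and without TGFb replicate 1 (−3.14, adjusted p = 0.0664).

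CRB3, the apical membrane protein of the same complex, read 5.91 and 5.79 untreated, 5.46 and 5.54 under TGFb, 5.64 with 5-AZA and 5.88 after withdrawal. Its values lay within 0.45 of each other, in the same order as those of PATJ apart from the 5-AZA array, which lay above both TGFb arrays. The difference of −0.35 ± 0.15 under TGFb did not pass (95% interval −0.73 to 0.02; adjusted p = 0.370).

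**Figure D1:**
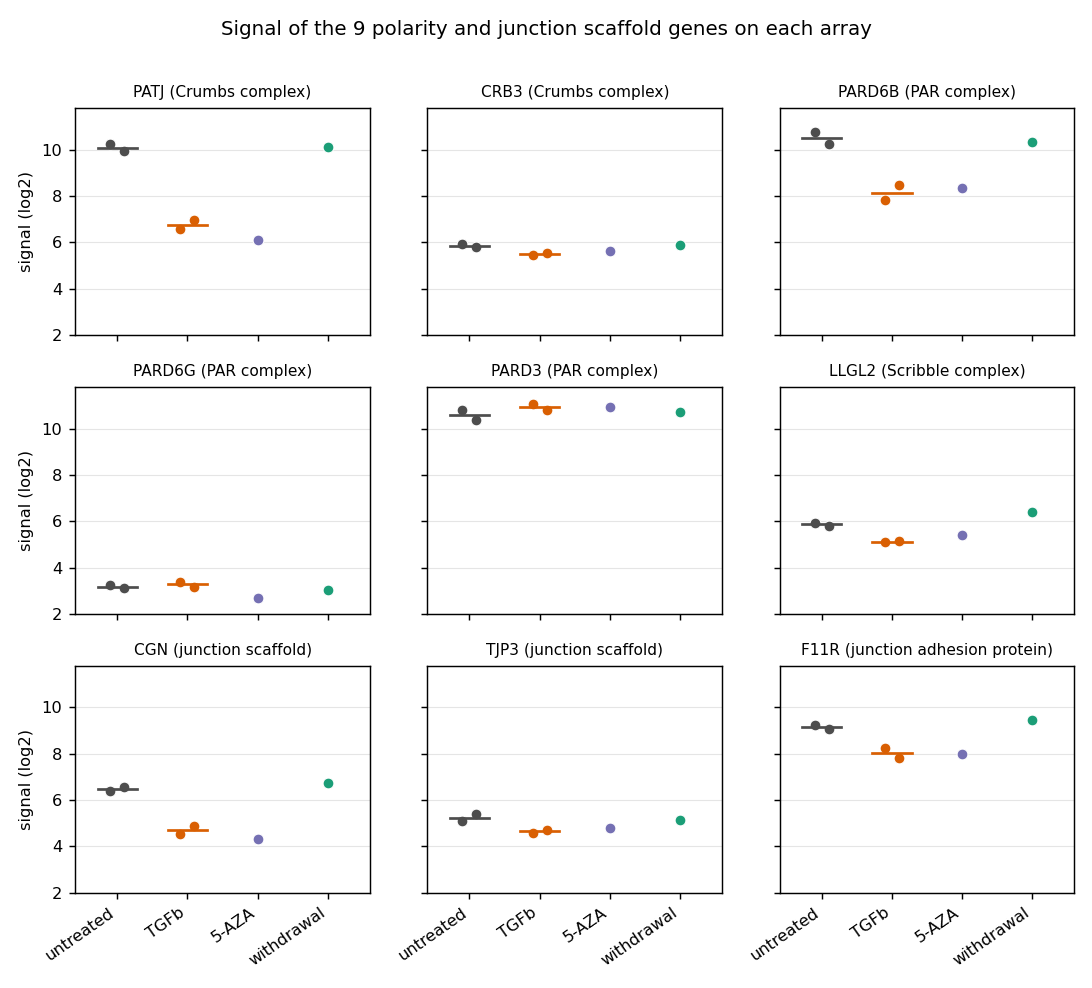
Signal (log2, vertical axis) of each of the 9 genes on the 6 arrays, by condition. Points are single arrays and bars the mean of the 2 untreated or 2 TGFb arrays. PATJ, PARD6B and CGN are low on the TGFb and 5-AZA arrays and back near the untreated level after withdrawal, while PARD3 and PARD6G show no such drop. Levels of different genes cannot be compared, as each has its own probe set.

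PARD6B, an adaptor between CDC42 and atypical protein kinase C, read 10.78 and 10.27 untreated, 7.82 and 8.48 under TGFb, 8.33 with 5-AZA and 10.33 after withdrawal. Again the TGFb and 5-AZA arrays lay below all others. It fell by 2.38 ± 0.30 under TGFb (95% interval −3.14 to −1.62; adjusted p = 0.0386). The means were 10.52 ± 0.36 untreated and 8.15 ± 0.47 under TGFb (SD, n = 2 each). Leaving out any single untreated or TGFb array ended that call, with values from −2.71 to −2.05 and adjusted p from 0.0962 to 0.184.

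PARD6G, another PAR6 gene, read 3.26 and 3.11 untreated, 3.39 and 3.18 under TGFb, 2.70 with 5-AZA and 3.05 after withdrawal. Untreated and TGFb arrays overlapped, and the 5-AZA array was the lowest. The TGFb difference was 0.10 ± 0.16 (95% interval −0.32 to 0.52; adjusted p = 0.841). Without TGFb replicate 1 its sign turned (−0.0072). With no detection limit it cannot be said whether signals this low were detected.

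PARD3, the scaffold of the complex, read 10.79 and 10.35 untreated, 11.05 and 10.79 under TGFb, 10.91 with 5-AZA and 10.71 after withdrawal. The groups overlapped and all 6 arrays lay within 0.70. TGFb differed from untreated by 0.35 ± 0.21 (95% interval −0.19 to 0.89; adjusted p = 0.536), so a change of the size seen for PARD6B lies outside the interval.

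LLGL2, the basolateral polarity protein, read 5.93 and 5.81 untreated, 5.09 and 5.16 under TGFb, 5.39 with 5-AZA and 6.38 after withdrawal. Both TGFb arrays lay below both untreated arrays, and the withdrawal array above all others. The difference of −0.75 ± 0.15 under TGFb did not pass over all probe sets (95% interval −1.12 to −0.37; adjusted p = 0.1).

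Cingulin (CGN) read 6.38 and 6.54 untreated, 4.55 and 4.86 under TGFb, 4.31 with 5-AZA and 6.75 after withdrawal. As for PATJ, the 5-AZA array was the lowest and the groups did not overlap. With no detection limit, it cannot be said whether CGN was detected on the TGFb and 5-AZA arrays, so its fall may be understated. CGN fell by 1.75 ± 0.18 under TGFb (95% interval −2.21 to −1.30; adjusted p = 0.0244). The untreated mean was 6.46 ± 0.12 and the TGFb mean 4.71 ± 0.22 (SD, n = 2 each). The call ended when any single untreated or TGFb array was left out, with values from −1.91 to −1.60 and adjusted p from 0.0971 to 0.165.

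ZO-3 (TJP3) read 5.08 and 5.40 untreated, 4.59 and 4.72 under TGFb, 4.80 with 5-AZA and 5.15 after withdrawal. The TGFb arrays were the lowest, but the difference of −0.59 ± 0.18 did not pass (95% interval −1.04 to −0.13; adjusted p = 0.227). JAM-A (F11R) read 9.22 and 9.05 untreated, 8.25 and 7.80 under TGFb, 7.98 with 5-AZA and 9.46 after withdrawal. Here too the TGFb and 5-AZA arrays lay below the rest, with a TGFb difference of −1.11 ± 0.20 that missed the threshold (95% interval −1.63 to −0.59; adjusted p = 0.0873).

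Counted by position alone, 7 of the 9 members had both TGFb arrays below both untreated arrays, against 23.1% of all probe sets. PARD3 and PARD6G were the exceptions. The median difference over the 9 members was −0.75, beside −0.006 over all probe sets and −0.004 over named genes. The middle 80% of all probe sets, of which 15378 name no gene, lay between −0.43 and 0.44. As the members were chosen with earlier results of these data known, these figures are no test of the set. An exact permutation test of 2 arrays against 2 cannot give a two-sided p below 0.333, so none was used for single genes. When dimmer probe sets were dropped, or only named genes were tested, LLGL2 and F11R were also called, which made 5 members lower. More features were called in those settings too. They were 1001 of 16147 probe sets (578 lower) and 1228 of 15947 genes (658 lower), beside 531 of 32293 in the main fit.

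Among the 5 genes immediately beside CGN, PARD6B and PATJ in gene order that had a probe set, TGFb differences lay between −0.47 (TUFT1, beside CGN) and 0.50 (BCAS4, beside PARD6B), and none was called. Over the immediate neighbours of all 9 members, 15 were measured. They ranged from −0.73 to 1.08, limma called none, and 4 had an unadjusted p under 0.05, as had 14.8% of all probe sets.

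**Figure D2:**
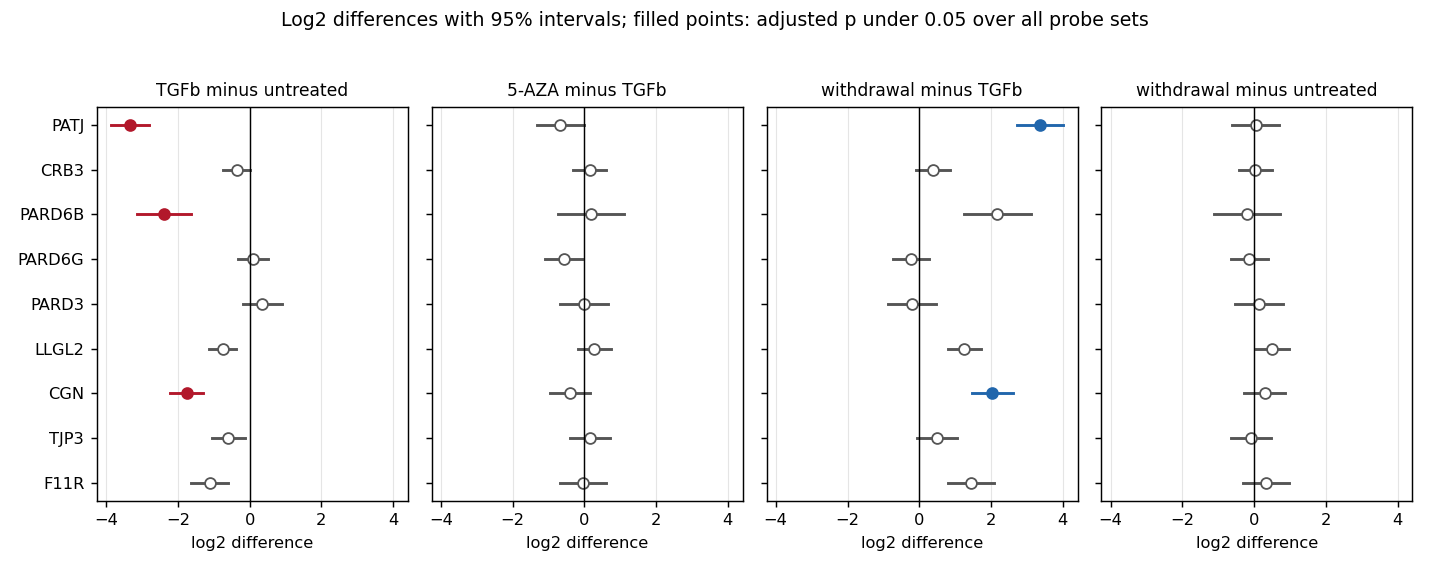
Log2 differences of the 9 genes in 4 comparisons, with 95% intervals from the limma fit. Filled points passed an adjusted p under 0.05 over all probe sets: 3 lower under TGFb, 2 higher after withdrawal, and none for 5-AZA against TGFb or withdrawal against untreated.

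Withdrawal asked whether expression moved once TGFb was removed. Against the TGFb arrays, PATJ and CGN rose and no member fell, while 0.839% of all probe sets were called (0.369% higher, 0.471% lower). PATJ rose by 3.37 ± 0.25 (95% interval 2.72 to 4.02; adjusted p = 0.0214), or 10.3-fold, and its second probe set by 2.83 ± 0.27 (adjusted p = 0.0310). CGN rose by 2.04 ± 0.22 (95% interval 1.48 to 2.60; adjusted p = 0.0390), or 4.11-fold. Both calls ended when any single untreated or TGFb array was left out. The values were then 3.19 to 3.56 for PATJ (adjusted p = 0.0518 to 0.133) and 1.88 to 2.20 for CGN (adjusted p = 0.0796 to 0.185).

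The members PARD6B, JAM-A and LLGL2 had positive differences that did not pass over all probe sets. PARD6B differed by 2.18 ± 0.36 (95% interval 1.26 to 3.11; adjusted p = 0.0962), JAM-A by 1.44 ± 0.25 (0.80 to 2.08; adjusted p = 0.106) and LLGL2 by 1.26 ± 0.18 (0.80 to 1.72; adjusted p = 0.0692). All 3 were called when dimmer probe sets were dropped and when only named genes were tested. In those settings 649 of 16147 probe sets and 907 of 15947 genes were called. CRB3 (0.39 ± 0.18), TJP3 (0.50 ± 0.22), PARD3 (−0.21 ± 0.26) and PARD6G (−0.23 ± 0.20) had intervals that included 0. By position, the withdrawal array lay above both TGFb arrays for 7 of 9 members, as it did for 39.9% of all probe sets. This comparison and the first share the TGFb arrays, so their differences are not independent.

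The withdrawal and untreated arrays were also compared directly. None of the 9 members was called, nor was any of the 32293 probe sets (0%). By limma's unadjusted p, 1 member was under 0.05, as were 9.77% of all probe sets. It was LLGL2, which lay above both untreated arrays and differed from their mean by 0.51 ± 0.18 (95% interval 0.05 to 0.97; adjusted p = 0.474). PATJ differed by 0.04 ± 0.25 (−0.61 to 0.69), CGN by 0.29 ± 0.22 (−0.27 to 0.85) and PARD6B by −0.19 ± 0.36 (−1.12 to 0.73). For these 3 genes the interval leaves out a difference as large as the one under TGFb. As a share of the TGFb shift, the withdrawal array had returned 101.3% for PATJ, 91.8% for PARD6B and 116.3% for CGN. The withdrawal value lay within the 2 untreated values for 5 members (28.9% of all probe sets), above them for LLGL2, CGN and F11R, and below them for PARD6G.

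5-AZA was the other treatment that followed TGFb. Against the TGFb arrays no member was called by limma, while 1.04% of all probe sets were called (0.855% higher, 0.189% lower). An unadjusted p under 0.05 was found for 2 of 9 members and for 13.7% of all probe sets. Both members had lower values on the 5-AZA array: PATJ at −0.67 ± 0.25 (95% interval −1.32 to −0.02; adjusted p = 0.354) and PARD6G at −0.58 ± 0.20 (−1.09 to −0.07; adjusted p = 0.305). The second PATJ probe set gave −0.51 ± 0.27, with an interval that included 0 (−1.2 to 0.19). CGN differed by −0.40 ± 0.22 (−0.96 to 0.16), F11R by −0.04 ± 0.25 (−0.68 to 0.60) and PARD6B by 0.18 ± 0.36 (−0.75 to 1.11). The values of CRB3 (0.15 ± 0.18), LLGL2 (0.27 ± 0.18) and TJP3 (0.15 ± 0.22) were positive and PARD3 differed by −0.01 ± 0.26. The 5-AZA array lay above both TGFb arrays for 3 members (35.7% of all probe sets) and below both for 3 (39.2%), both near the share among all probe sets.

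Against untreated cells, the 5-AZA array was called lower for 3 members (PATJ, CGN and PARD6B) and higher for none, with 3.65% of all probe sets called (1.41% lower, 2.24% higher). This comparison shares the untreated arrays with the first. PATJ differed by −4.0 ± 0.25, or 16-fold lower (adjusted p = 0.00403), and this call held under every alternative tried. CGN gave −2.16 ± 0.22 (adjusted p = 0.0144) and PARD6B −2.20 ± 0.36 (adjusted p = 0.0478). The CGN call ended without untreated replicate 1 (−2.24, adjusted p = 0.0598) or 2 (−2.07, adjusted p = 0.0662). The PARD6B call ended under quantile normalization (adjusted p = 0.0556) and with each array left out (−2.45 to −1.94, adjusted p = 0.0775 to 0.131). F11R differed by −1.15 ± 0.25 (interval −1.79 to −0.51) and LLGL2 by −0.48 ± 0.18 (−0.94 to −0.02). Neither passed over all probe sets, and F11R was called only when named genes alone were tested. PARD6G (−0.48 ± 0.20), TJP3 (−0.44 ± 0.22), CRB3 (−0.21 ± 0.18) and PARD3 (0.34 ± 0.26) had intervals spanning no change. In all, 8 of 9 members lay below both untreated arrays, as did 40.6% of all probe sets. The exception was PARD3.

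A direct contrast of the withdrawal and 5-AZA arrays tested whether the 2 conditions differed from each other. PATJ was 16.4-fold higher after withdrawal (log2 difference 4.04 ± 0.29, adjusted p = 0.00782), a call that held under every alternative. CGN was 5.43-fold higher (2.44 ± 0.25, adjusted p = 0.0182), a call lost without TGFb replicate 1 or 2 (adjusted p = 0.0539 in each case). These were the 2 of 9 members called, beside 3.04% of all probe sets (0.957% higher, 2.08% lower). PARD6B (2.0 ± 0.42, adjusted p = 0.0839), F11R (1.48 ± 0.29, adjusted p = 0.0737) and LLGL2 (0.99 ± 0.21, adjusted p = 0.0834) did not pass. PARD3 (−0.20 ± 0.30), PARD6G (0.35 ± 0.23), TJP3 (0.35 ± 0.25) and CRB3 (0.24 ± 0.21) had intervals that included 0. Each side of this contrast is a single array, which is assumed to vary like the replicated groups.

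For PATJ and CGN the levels were ordered withdrawal, untreated, TGFb and 5-AZA from high to low, and for PARD6B untreated, withdrawal, 5-AZA and TGFb. In each case the first 2 conditions did not pass the test against each other, nor did the last 2. For PARD6B withdrawal did not pass against TGFb or against 5-AZA either.

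Several members have paralogs among the 40 further polarity and junction genes listed, 36 of which were measured. MPDZ encodes MUPP1, the closest relative of PATJ, and read 3.20 and 3.29 untreated, 3.21 and 3.27 under TGFb, 4.71 with 5-AZA and 3.38 after withdrawal. Only the 5-AZA array stood out. With no detection limit, it cannot be said whether its other signals were detected or could have fallen. MPDZ differed by −0.00 ± 0.14 under TGFb (adjusted p = 0.996) and rose by 1.47 ± 0.18 in 5-AZA against TGFb (adjusted p = 0.0416). That call was lost under quantile normalization and when any untreated or TGFb array was left out (1.44 to 1.5, adjusted p = 0.0961 to 0.238). Against withdrawal the 5-AZA array was also higher (withdrawal minus 5-AZA −1.33 ± 0.20, adjusted p = 0.0440), a call that ended without any one of those arrays (adjusted p = 0.0766 to 0.123). So on the 5-AZA array PATJ had its lowest value and MPDZ its highest, though the difference between the 2 genes was not tested.

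CGNL1 encodes paracingulin, the relative of CGN. It read 7.10 and 6.72 untreated, 6.61 and 6.32 under TGFb, 7.22 with 5-AZA and 5.39 after withdrawal. Withdrawal gave its lowest value, where CGN had its highest. CGNL1 was lower on the withdrawal than on the 5-AZA array by −1.82 ± 0.29 (adjusted p = 0.0488, or 0.0672 to 0.112 with 1 array left out), and CGN higher by 2.44 ± 0.25. Its other differences did not pass, with −0.44 ± 0.21 for TGFb against untreated, −1.07 ± 0.25 for withdrawal against TGFb and −1.51 ± 0.25 for withdrawal against untreated.

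PARD3B, the relative of PARD3, likewise had its lowest value after withdrawal. It read 7.59 and 7.41 untreated, 7.78 and 7.36 under TGFb, 7.04 with 5-AZA and 6.02 after withdrawal, and its withdrawal differences of −1.55 ± 0.25 against TGFb (adjusted p = 0.0875) and −1.48 ± 0.25 against untreated (adjusted p = 0.302) did not pass. PARD6A, also a PAR6 gene, read between 2.93 and 3.44 on the 6 arrays, with a TGFb difference of −0.01 ± 0.19. LLGL1 gave −0.47 ± 0.14 under TGFb (adjusted p = 0.236) beside −0.75 ± 0.15 for LLGL2. JAM3, a relative of F11R, gave −0.03 ± 0.15 beside −1.11 ± 0.20. ZO-1 (TJP1) gave −0.36 ± 0.14 (adjusted p = 0.345) beside −0.59 ± 0.18 for TJP3. CRB1 (0.10 ± 0.23) and CRB2 (0.08 ± 0.15), the relatives of CRB3, did not pass either. The differences between paralogs were not tested. With no detection limit, a fall may go unseen at the low signals of PARD6A, JAM3 (3.96 to 4.14) and CRB1 (3.16 to 3.7).

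**Figure D3:**
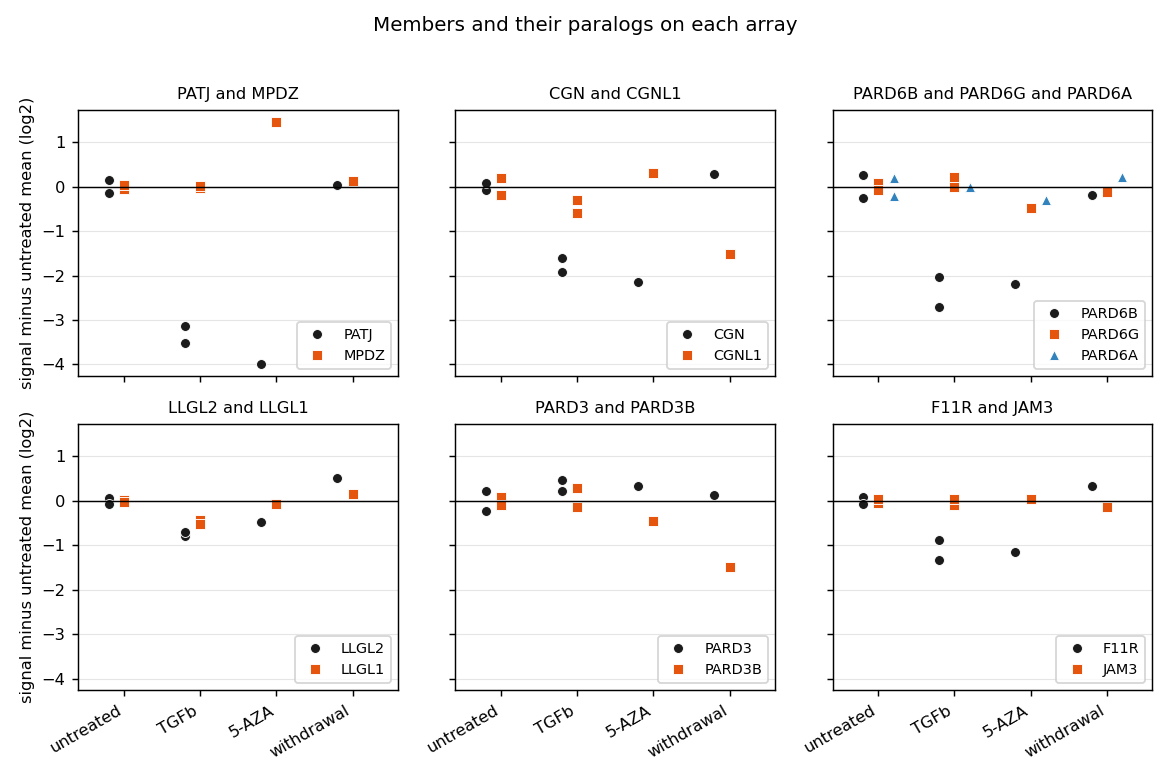
Signal of members and their paralogs on each array, as log2 difference from the mean of the 2 untreated arrays (line at 0). PATJ drops on the TGFb and 5-AZA arrays while MPDZ stands apart only on the 5-AZA array. CGNL1 and PARD3B are lowest on the withdrawal array, where CGN and PARD3 are near their untreated level. With no detection limit, a fall may go unseen at the low untreated signals of MPDZ, PARD6A, PARD6G and JAM3.

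Over the 36 measured genes of that wider list, 2 fell under TGFb (0.954% of all probe sets) and none rose (0.691%), and 34 did not pass. Both are junction scaffolds. AFDN, encoding afadin, which ties nectins to actin, read 9.60 and 9.25 untreated, 8.0 and 7.84 under TGFb, 7.80 with 5-AZA and 9.07 after withdrawal, a fall of 1.51 ± 0.18 under TGFb (log2 difference −1.51, adjusted p = 0.0368). MAGI3, encoding a scaffold with several PDZ domains, read 7.61 and 7.20 untreated, 6.08 and 5.94 under TGFb, 5.84 with 5-AZA and 7.27 after withdrawal, with a TGFb difference of −1.39 ± 0.20 (adjusted p = 0.0486). Both had the pattern seen for PATJ, with no overlap between the high and low arrays. Both calls ended when any untreated or TGFb array was left out (adjusted p = 0.0830 to 0.242), and that on MAGI3 also under quantile normalization and median centring. The median over the 36 genes was −0.12.

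The next 5 genes were chosen after their values were seen. PRKCZ, one of the atypical protein kinase C genes, had the largest difference of the wider list under TGFb but did not pass (−2.0 ± 0.31, adjusted p = 0.0616), and the other, PRKCI, gave −0.01 ± 0.16. PALS1, the link between CRB3 and PATJ, gave −0.57 ± 0.16 (adjusted p = 0.199), SCRIB −0.04 ± 0.15 and CDC42 0.06 ± 0.15. By role, the 7 junction scaffolds (2 of them members) had a median of −1.27 with 3 called lower (0.954% of all probe sets). The median was −0.09 for 9 genes of the Crumbs complex and 0.02 for 8 of the PAR complex, with 1 called lower in each. It was −0.47 for 5 of the Scribble group, −0.18 for 5 junction adhesion proteins and −0.18 for 3 polarity kinases, with none called. For 8 GTPase regulators or angiomotins it was −0.1, also with none called. Like those of the scaffolds, the values of the junction adhesion proteins were all below 0 (−1.11 to −0.03).

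After withdrawal none of the 36 was called against TGFb by limma (0.839% of all probe sets were). At an unadjusted p under 0.05 there were 14 (13.5% of all probe sets). AFDN gave 1.15 ± 0.23 (adjusted p = 0.129) and MAGI3 1.26 ± 0.24 (adjusted p = 0.121). None was called between withdrawal and untreated, with 3 at an unadjusted p under 0.05 (9.77% of all probe sets). In 5-AZA against TGFb, MPDZ alone rose (0.855% of all probe sets) and none fell (0.189%). Against untreated, the 5-AZA array was called higher for MPDZ and LIN7A (2.24% of all probe sets) and lower for AFDN and MAGI3 (1.41%). For LIN7A, a partner of PALS1, the difference was 1.17 ± 0.20 (adjusted p = 0.0488). The LIN7A call was lost under median centring, an intensity trend and each left-out array. Those other calls also ended with any single array left out (adjusted p = 0.0639 to 0.109 for the 3 genes).

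**Figure D4:**
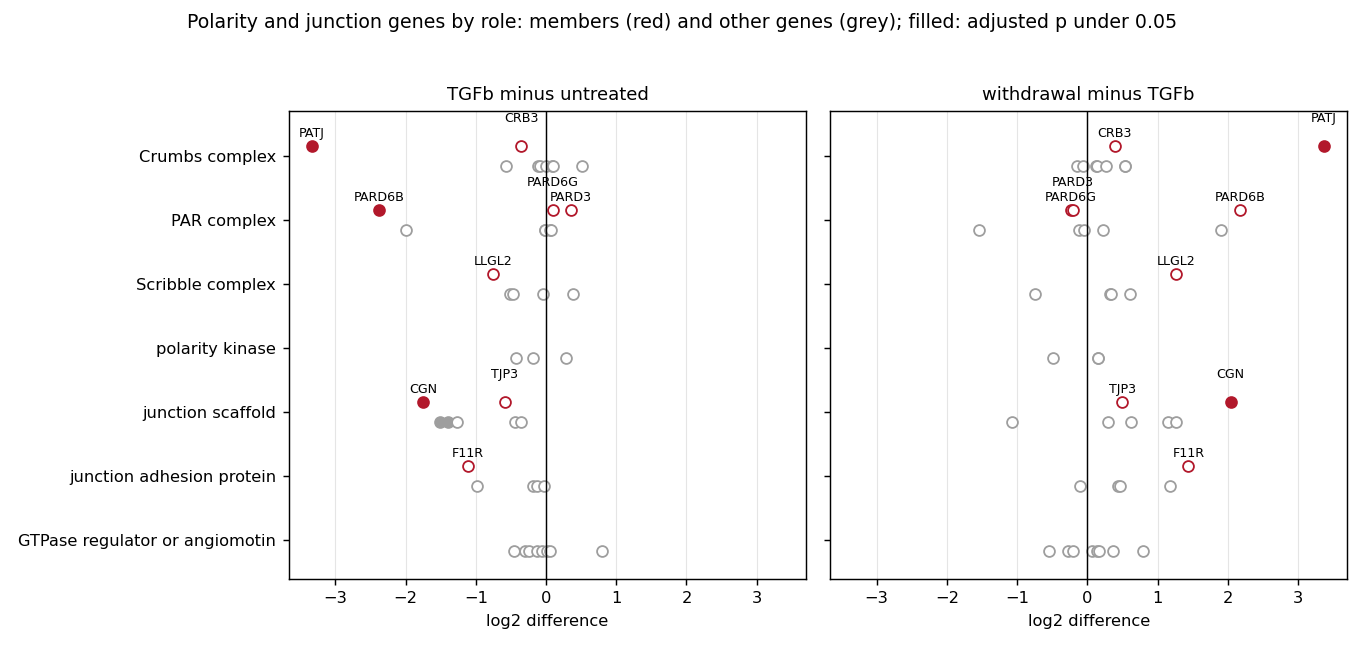
Log2 differences of the 9 members (red) and 36 further polarity and junction genes (grey), by role, for TGFb minus untreated (left) and withdrawal minus TGFb (right). Filled points passed an adjusted p under 0.05. Under TGFb, PATJ lies far from the rest of the Crumbs complex. The 7 junction scaffolds all have values below 0, and so do the 5 junction adhesion proteins.

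PATJ had the widest range of group means among the members (4.04), and genes with a like profile were sought among 554 named genes outside the members whose SD over the arrays was at least 0.5 of that of PATJ. The closest were CA14 (Pearson r = 0.9931), FUT2 (0.9922), MAP3K5 (0.9916), MACC1 (0.9903) and SLC2A12 (0.9900), over 6 arrays of 4 conditions. CA14, for instance, read 7.20 and 7.09 untreated, 5.52 and 5.5 under TGFb, 4.88 with 5-AZA and 7.18 after withdrawal, while MACC1 read 8.88 and 8.4 untreated, 4.36 and 4.61 under TGFb, 4.07 with 5-AZA and 9.53 after withdrawal. The 6 arrays hold only 4 conditions, 2 of them high and 2 low for each of these genes. Among the members themselves, PATJ correlated at 0.99 with CGN, 0.97 with PARD6B, 0.95 with F11R, 0.90 with CRB3, 0.88 with LLGL2, 0.87 with TJP3, 0.22 with PARD6G and −0.68 with PARD3 over the same 6 arrays.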

How the data were processed

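The deposited table holds log2-scale expression values for 32293 probe sets on 6 arrays. They were made with Affymetrix Expression Console 1.2, per the submitters' processing notes. No source used here gives the log base, summary method or background correction. Values from 0.937 to 13.13 were read as log2. Precision is limited by having 6 arrays.

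The platform annotation named 1 gene for 16545 probe sets, several for 370 and none for 15378. Symbols were updated by Entrez identifier from RefSeq assembly UU_Cfam_GSD_1.0, also used for gene order. CRB3 had no identifier and kept its annotated symbol. A linear model with 1 mean per group was fitted over the 6 arrays (lmFit and eBayes of limma 3.58.1, R 4.3.3). Residual degrees of freedom were 2, and moderation added 3.10. The fit was also run on simulated arrays with known changes, as a check of the mean estimated change only. Single and replicated arrays had the same simulated spread, so that run cannot test whether they vary alike.

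The members and lists were chosen with earlier results of these data known. All members are named, with their paralogs and any listed polarity gene that was called, plus the 5 genes most like the widest-ranging member. Listed polarity genes without a probe set of their own are not analysed here. Promoter motifs were not analysed here. Alternatives covered normalization, centring, dim probe sets, features tested, repeated rows, moderation, replicate block, left-out arrays and averaged probe sets.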

Additional observations from a re-analysis of the deposited data

How the results depend on the processing

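Alternatives were computed for the 9 members in the 6 comparisons and for the calls on MAGI3, AFDN, MPDZ, LIN7A and CGNL1. Among these no called value changed sign, and 71 of 746 recomputed values lost a call while 17 gained one. The other genes named have no such values. With dimmer probe sets dropped, the called members numbered 5 in place of 3 for TGFb against untreated, 5 in place of 2 for withdrawal against TGFb and 5 in place of 2 for withdrawal against 5-AZA. Of 16147 probe sets, 1001, 649 and 1322 were called in those 3 comparisons, and 110 for 5-AZA against TGFb. With named genes only (15947 tested), the called members were again 5 in each of those comparisons. Called genes were then 1228 for TGFb against untreated, 907 for withdrawal against TGFb and 58 for withdrawal against untreated. They were 682 for 5-AZA against TGFb, 1736 for 5-AZA against untreated and 1721 for withdrawal against 5-AZA. For 5-AZA against untreated the called members were 4 in place of 3, with F11R added. Fewer features are tested in both settings. PARD6G and TJP3 were among the dimmer probe sets.

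Leaving out 1 untreated or TGFb array leaves 1 residual degree of freedom. The called members then ranged from 0 to 1 for TGFb against untreated, were 0 for withdrawal against TGFb, and ranged from 1 to 2 both for 5-AZA against untreated and for withdrawal against 5-AZA. Called probe sets ranged from 0 to 129 for TGFb against untreated, 0 to 97 for withdrawal against TGFb, 0 to 137 for 5-AZA against TGFb, 346 to 435 for 5-AZA against untreated and 277 to 595 for withdrawal against 5-AZA.

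Untreated and TGFb arrays share replicate numbers, but deviations of same-numbered arrays correlated at only 0.099, and the labels do not say that a number marks a shared culture. With the replicate block the called members stayed at 3, 2, 0, 0, 3 and 2 over the 6 comparisons, and 712 probe sets were called for TGFb against untreated in place of 531. The calls on MPDZ (5-AZA against TGFb and withdrawal against 5-AZA) and LIN7A ended under the block. The cause of these changes was not tested. No detection limit is known, so the low signals of PARD6G, PARD6A, MPDZ, JAM3, CRB1 and SCRIB bound little.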
